A study of Neurospora crassa with 12 samples.

Results

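After 30 min of treatment with HSAF a set of 132 Neurospora crassa genes stood at 4 times their untreated level or more, while the same genes lay within 0.5 and 2 times that level after 5 min and again after 60 min. They were chosen from the counts themselves. The counts of 9729 genes with an NCU locus tag were divided by median-of-ratios size factors and averaged within each time point, and 5 was added to each mean before ratios to the untreated group were formed. A gene also had to reach a mean of 50 normalized counts in at least 1 group, which 5452 genes did. Of these, 828 genes stood at 4 times HSAF-0 or more at 30 min, and the 132 genes made up 15.9% of them. Since the rule used all 4 time points, the values below describe these genes and are not tests of their course.

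HSAF is the heat-stable antifungal factor, an antibiotic made by the bacterium Lysobacter enzymogenes. The study asked how the transcriptome of a filamentous fungus responds to it over time. RNA was sequenced from mycelium of the wild type strain FGSC2489, with 3 libraries at each time: HSAF-0 (untreated, libraries A to C), and 5 min (HSAF-5, D to F), 30 min (HSAF-30, G to I) and 60 min (HSAF-60, J to L) with 40 µM HSAF. All groups share this genotype and tissue, and no vehicle-treated group or untreated group of the later times was analysed here, so time in the experiment and time with HSAF cannot be told apart. The study describes the libraries of a time point as biological replicates, and whether each came from a culture of its own is not given in the labels. It names a pair of Illumina platforms without saying which library was run on which, so a batch of this kind could not be separated from the groups.

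The hyphae of N. crassa grow by extending their tips, and the cell wall is built there under the control of kinase cascades and calcium signals. The cell wall integrity pathway is a cascade of protein kinases, each activating the next, that ends in a MAP kinase and is known for its response to wall damage. Calcineurin is a phosphatase that is switched on by calcium and calmodulin. In filamentous fungi the peroxisome also gives rise to the Woronin bodies, which plug the pores of septa next to damaged parts of a hypha.

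Total counts per library lay between 11517462 and 15698448, but those on NCU genes lay between 790513 (library I) and 11265740 (library J). In library I, 93.7% of all counts fell on 2 deposited features, newGene_189 and newGene_190, against 25.2% to 80.4% in the other libraries. A single count in I is therefore worth 5.33 normalized counts, against 0.351 in J. The genes had a median of 61.5 raw counts in I, and 3 of them had under 10. Of the markers of growing hyphae, tef-1, act, hex-1 and gpd-1 together held 55850 to 121916 normalized counts in every library, whereas 6 conidiation genes together held 69.3 to 799.4 and 5 genes of sexual development 157 to 1162. These sums hide opposite courses. From HSAF-0 to HSAF-30 the mean of tef-1 fell from 75255 to 47246 and that of gpd-1 from 24494 to 8856. Those of act (5455 to 10860.5) and hex-1 (11703 to 30210) rose. In HSAF-0, asd-1 held 767 of the 840 counts of the sexual development genes.

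In each library of HSAF-30 the 132 genes took a larger share of the counts on NCU genes than in any other library. This share averaged 0.630% ± 0.0398 in HSAF-0, 0.672% ± 0.0796 after 5 min, 3.28% ± 0.432 after 30 min and 0.793% ± 0.0864 after 60 min (SD, n = 3 each). At 30 min the ratio to HSAF-0 ranged from 4.02 to 30.9, with a median of 5.39 and quartiles of 4.60 and 7.25. There were 27 genes at 8 or more and 5 at 16 or more, while 51 stayed under 5. Over the 5452 genes with sufficient counts the median ratio at 30 min was 0.988. From HSAF-30 to HSAF-60 the genes came down to a median of 0.207 of their 30 min level, and none was left with more than 0.460 of it.

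On both flanks of the peak most of the genes lay above HSAF-0. At 5 min the median ratio was 1.40, with 106 genes above HSAF-0 and 26 below, where the median of all genes was 0.980. At 60 min it was 1.26, with 95 genes above and 37 below, where the median of all genes was 1.03. In all, 74 genes were above HSAF-0 at both times, 32 were above at 5 min and below at 60 min, 21 showed the reverse, and 5 were below at both. Only 8 genes had both ratios within 0.8 and 1.2. The limits of 0.5 and 2 thus hold genes well above HSAF-0 at 5 min (49 above 1.5) and at 60 min (43 above 1.5). These ratios share the HSAF-0 mean with the ratio at the peak by which the genes were chosen. Choosing high ratios favours genes with a low HSAF-0 mean by chance, which raises the ratios on both flanks as well. The medians of all genes carry no such choice and are given as background only. Whether the genes rose early or came down only in part was not tested.

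**Figure D1:**
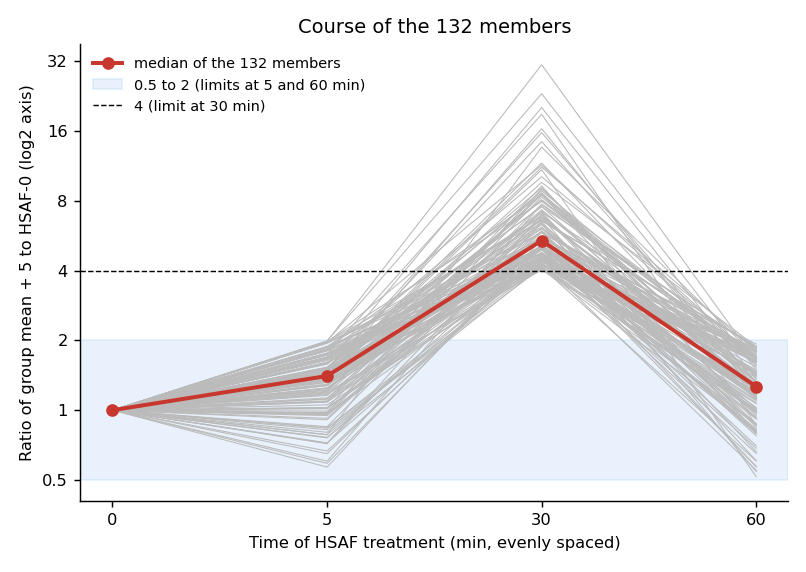
Ratio of each group mean to HSAF-0 (both plus 5, log2 axis) for the 132 genes at 0, 5, 30 and 60 min, drawn at even spacing. Grey lines are single genes, the red line is their median (1.40, 5.39 and 1.26 at 5, 30 and 60 min), the blue band marks the limits of 0.5 to 2 at 5 and 60 min, and the dashed line marks the limit of 4 at 30 min.

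An edgeR fit over all 12 libraries gives these courses a common scale. A gene counts as called when its p, adjusted after Benjamini and Hochberg, was under 0.01 with a change of 2-fold or more. In HSAF-30 against HSAF-0, 131 of the 132 genes (all but NCU04289) were called higher, where 19.0% of the 7582 genes tested were, and none lower, where 15.3% were. Against HSAF-5, HSAF-30 gave 115 called higher, where 9.03% of all genes were, and none lower, where 7.81% were. In HSAF-60 against HSAF-30, 125 were called lower and none higher, where 13.6% of all genes were called in each direction. The rule used these same contrasts, so the counts say only how much of the chosen pattern passes a model of the replicate spread. The median log2 fold change in HSAF-30 against HSAF-0 was 2.62 for the 132 genes and -0.18 for all tested genes, and in HSAF-60 against HSAF-30 it was -2.41 and 0.11. Without library I the 3 counts were 129, 112 and 122. On deposited FPKM, which is scaled to totals that include the newGene features, limma called 11 of 111 genes higher in HSAF-30 against HSAF-0, where it called 3.49% of all genes higher.

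On the flanks few genes were called. The rule keeps ratios to HSAF-0 there within 0.5 and 2, and a call needs a 2-fold change. Few calls against HSAF-0 were thus set by the rule, and the shares of all genes are given as background only. The same limits bound HSAF-60 against HSAF-5 in part. In HSAF-5 against HSAF-0, edgeR called NCU04537 alone higher, where 9.65% of all genes were, and none lower, where 2.33% were; at an unadjusted p under 0.05 it had 36 higher and 2 lower, and DESeq2 made the same number of calls. The call of NCU04537 was lost in 9 of the 12 fits that leave out 1 library, those without A, B, C, D, E, F, J, K or L. In HSAF-60 against HSAF-0 neither edgeR nor DESeq2 called any, where edgeR called 9.42% of all genes higher and 3.47% lower. At an unadjusted p under 0.05, edgeR had 30 of the 132 genes higher and 5 lower. In HSAF-60 against HSAF-5, 5 genes were called lower (set-2, gpr-6, cys-9, kal-1 and NCU08396), where 9.26% of all genes were, and none higher, where 8.74% were. At an unadjusted p under 0.05 it had 23 lower and 10 higher, and DESeq2 called 7 lower and 1 higher. The number called by edgeR was 8 without library I, 2 without E, 2 without K and 0 without L. The shares of all tested genes at an unadjusted p under 0.05 are not given here, so the counts at that limit have no background beside them.

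For 125 of the 132 genes all 3 HSAF-30 libraries lay above all 9 others, which was so for 12.2% of the 5452 genes. None had all 3 below the others, as 13.5% of the 5452 genes did. The rule itself favours the first order and shuts out the second, so both shares are given as background only. The lowest HSAF-30 library was at least 2 times the highest other library in 73 genes. Over the 125 genes alone the median of this ratio was 2.11. The 7 genes that overlapped were NCU04289, NCU01715, NCU08132, NCU06876, NCU04913, NCU03567 and NCU05582.

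**Figure D2:**
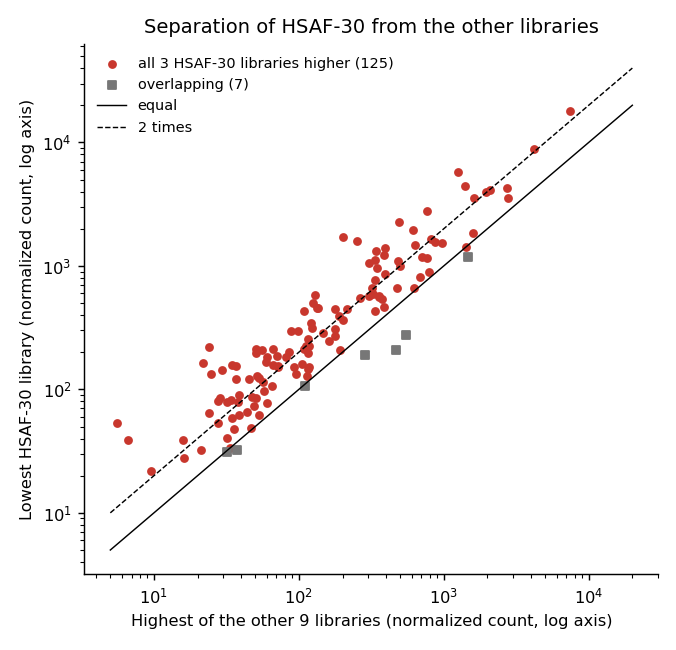
Lowest of the 3 HSAF-30 libraries against the highest of the other 9 libraries for each of the 132 genes, in normalized counts on log axes. Red points are the 125 genes with all HSAF-30 libraries higher, grey squares the 7 that overlap, the solid line marks equality and the dashed line a ratio of 2, which 73 genes reach.

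By their HSAF-30 means the genes spanned 57.0 to 23271 normalized counts with a median of 356, and 40 of them exceeded 1000 while 14 stayed under 100. On the FPKM scale, which corrects for length, their median rank was at the 80.3rd percentile of NCU genes in HSAF-30 and at the 55.8th in HSAF-0. There were 43 of them among the top 10% of genes in HSAF-30 and 12 in HSAF-0. The genes had a median length of 2998 bases, against 2422 for the 5452 genes. The NC12 reference gives a symbol for 22 of the 132 genes (16.7%), against 16.1% of the 5452 genes, so 110 are known here by their locus tag alone.

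Of the 22 genes with a symbol, 7 encode protein kinases. Among all 1118 NCU genes with a symbol, 82 are in the list of protein kinases. That list was drawn up after the members had been seen, and the 1118 genes include some with too few counts for the rule. Whether kinases were more frequent among the members was not tested. The MAP kinase gene mak-1, the last step of the cell wall integrity cascade, had 293, 314 and 283 normalized counts in HSAF-0, 348, 396 and 289.6 after 5 min, 2492, 1884 and 1386 after 30 min, and 245, 248 and 228 after 60 min. Its lowest HSAF-30 library was 3.50 times its highest other library. The ratios to HSAF-0 were 1.16, 6.38 and 0.81 at 5, 30 and 60 min, and its HSAF-60 libraries all lay below those of HSAF-0.

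The other kinases of the cascade ran differently. Among the 14 tested genes of the MAP kinase cascades, 6 were called higher and 1 lower in HSAF-30 against HSAF-0. Over all tested genes 19.0% were called higher and 15.3% lower. The median log2 fold change was 1.09 for the 14 genes and -0.18 over all tested genes. The MAP kinase kinase gene mek-1, which acts on MAK-1, averaged 534, 5270.2, 3278 and 814 normalized counts at 0, 5, 30 and 60 min, and so was already at 9.79 times HSAF-0 at 5 min. The first kinase of the cascade, mik-1, averaged 61.2, 30.0, 82.4 and 41.4 and was not called at 30 min. Of the 14 genes mak-1 alone met the rule.

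The regulatory subunit of calcineurin, cnb-1, had the highest normalized count at 30 min of the genes with a symbol. It had 661, 813 and 726 normalized counts in HSAF-0, 899, 1079.6 and 1173 after 5 min, 8771, 4536 and 4474 after 30 min, and 1015, 1228 and 1401 after 60 min. The 3 HSAF-30 libraries exceeded all others at least 3.19-fold, with G well above H and I. The ratios were 1.43, 8.03 and 1.65.

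Of 12 tested calcium genes, cnb-1 included, 5 were called higher and none lower in HSAF-30 against HSAF-0 (19.0% and 15.3% of all genes). The 12 had a median log2 fold change of 0.82. The 4 others called higher, camk-1, nca-2, pmr-1 and cax, were all above 2 times HSAF-0 at 5 min. The calcium pump gene nca-2 averaged 301, 882, 8510.1 and 464 normalized counts over the 4 times, a ratio of 2.90 at 5 min and 27.9 at 30 min. The exchanger gene cax averaged 47.5, 176, 309 and 39.1, with 3.44 at 5 min. Calmodulin, cmd, averaged 2598, 3257, 3591 and 1604 and was not called at 30 min.

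**Figure D3:**
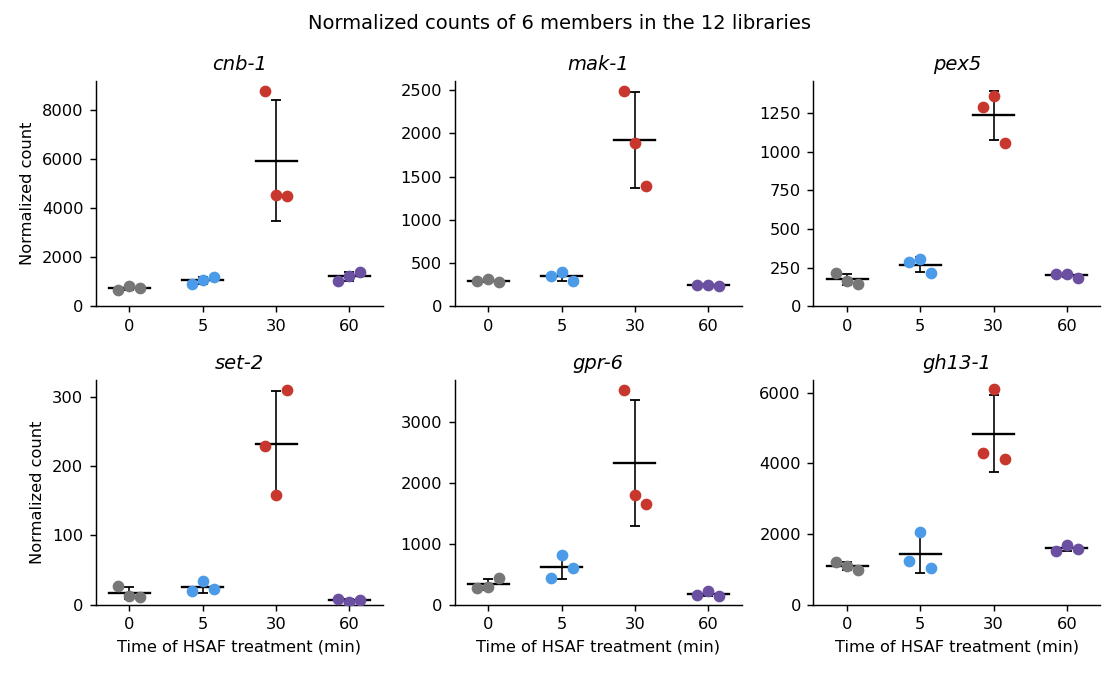
Normalized counts of cnb-1, mak-1, pex5, set-2, gpr-6 and gh13-1 in the 12 libraries by time of HSAF treatment. Points are libraries, horizontal lines the group means and error bars the SD (n = 3); in each gene the 3 HSAF-30 points lie above the other 9, with lowest values of 4474, 1386, 1056, 158, 1653 and 4138.

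The remaining 6 kinase genes had fewer counts. The gene mdk-1 had 182, 154 and 199 normalized counts in HSAF-0, 336, 242 and 282 after 5 min, 1546, 1067 and 763 after 30 min, and 141, 143 and 138 after 60 min. Its lowest HSAF-30 library was 2.27 times the highest other one, and its HSAF-60 libraries lay below all of HSAF-0. For fi the HSAF-30 libraries had 249, 184 and 267, against 34.9, 58.9 and 48.4 in HSAF-0, and the other 6 libraries stayed between 49.1 and 81.0, which gives the same gap.

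In the other 4 kinase genes the HSAF-30 libraries came closer to the rest. The gene stk-52 had 310.1, 146 and 304 normalized counts in HSAF-30, against 68.2, 26.0 and 45.7 in HSAF-0, and reached 116 in library L. The gene prk-8 had 461, 823 and 544 in HSAF-30, against 171, 109.6 and 135 in HSAF-0, and reached 388 in library E. It met the rule in only 7 of the 12 sets that leave out 1 library, as did mus-59.

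A checkpoint kinase gene, mus-59, lay nearest to the limits of the rule, with 60.3, 78.6 and 32.0 normalized counts in HSAF-30, against 6.34, 11.6 and 13.2 in HSAF-0. Its HSAF-30 mean of 57.0 was the lowest of the 132 genes, its ratio of 4.02 was next to the lowest, and its value in library I rests on 6 counts. The autophagy-initiating kinase gene apg-1 had 14.3, 16.4 and 20.4 in HSAF-0, 43.7, 39.8 and 15.68 after 5 min, 96.3, 65.3 and 101 after 30 min, and 23.9, 22.6 and 22.0 after 60 min. In both genes all 3 HSAF-30 libraries were above every other library, by 1.51-fold for mus-59 and 1.49-fold for apg-1. The other autophagy gene with a symbol in the list, atg-8, whose product is joined to the autophagosome membrane, averaged 3186, 5958, 13618 and 7432 over the 4 times and failed the rule at 60 min with a ratio of 2.33.

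Over the 74 tested genes with a kinase symbol, 22 were called higher and 2 lower in HSAF-30 against HSAF-0. Of all tested genes 19.0% and 15.3% were, and the kinase genes had a median log2 fold change of 0.66. This list was drawn up after the 132 genes had been seen. It holds 7 of the 132 genes, 0 of the 146 genes that rose 4-fold at 30 min and stayed above 2 at 60 min, 4 of the 186 that were already above 2 at 5 min and returned by 60 min, and 3 of the 344 that were above 2 at both times. The genes with a symbol, which alone can enter the list, number 22, 17, 32 and 27 in these groups. As background, the list holds 82 of the 1118 NCU genes with a symbol, whatever their counts. Whether the share of kinases differed between the groups was not tested.

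Among the peroxisome genes, pex5, which encodes the receptor that carries enzymes into peroxisomes, had 214, 162 and 145 normalized counts in HSAF-0, 288, 307 and 212 after 5 min, 1291, 1362 and 1056 after 30 min, and 206, 206 and 186 after 60 min. Its 3 HSAF-30 libraries differed by only 1.29-fold and lay at least 3.44-fold above the rest. Its ratios were 1.53, 6.94 and 1.14 at 5, 30 and 60 min.

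The peroxin genes as a group did not move together. A list of 20 tested pex genes was drawn up after the 132 genes had been seen. In HSAF-30 against HSAF-0, 6 of the 20 were called higher and 2 lower (19.0% and 15.3% of all genes). The 20 had a median log2 fold change of 0.52. The docking factor gene pex13 averaged 311, 1999, 2558 and 543 normalized counts over the 4 times and so was high from 5 min. The gene pex19 averaged 489, 138, 108 and 479 and was the lowest of the list at 30 min, with a ratio of 0.23.

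G protein coupled receptors are proteins that sense signals outside the cell. Of 6 tested genes for them, 2 were called higher in HSAF-30 against HSAF-0, where 19.0% of all tested genes were, and both are among the 132. Their list was drawn up after the 132 genes had been seen. The gene gpr-6 had 278, 291 and 445 normalized counts in HSAF-0, 437, 814 and 609.6 after 5 min, 3531, 1808 and 1653 after 30 min, and 166, 232 and 147 after 60 min. Its level at 60 min, at 0.54 of HSAF-0, was among the lowest of the 132 genes, and every HSAF-60 library lay below every HSAF-0 library. The gene gpr-5 had fewer counts, with 96.3, 112 and 128 in HSAF-30, against 22.2, 30.1 and 8.80 in HSAF-0, and was back at 0.99 of HSAF-0 at 60 min.

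Chromatin enzymes were represented by set-2 and nst-7, from a list of 20 tested genes drawn up after the 132 genes had been seen. Of the 20, 5 were called higher and 3 lower in HSAF-30 against HSAF-0 (19.0% and 15.3% of all genes). The median log2 fold change of the 20 was -0.86. The gene set-2, for a histone H3 lysine methyltransferase that travels with RNA polymerase, had 27.0, 12.3 and 11.0 normalized counts in HSAF-0, 19.9, 34.5 and 22.1 after 5 min, 229, 158 and 309 after 30 min, and 8.42, 4.10 and 6.21 after 60 min. It had the highest ratio at 30 min of the genes with a symbol, 10.9, and the lowest at 60 min of all 132, 0.52, so that its HSAF-60 mean was 0.0475 of its HSAF-30 mean. The sirtuin gene nst-7 had 20.6, 14.4 and 20.4 in HSAF-0, 21.9, 13.3 and 13.8 after 5 min, 189, 85.2 and 171 after 30 min, and 23.9, 50.3 and 43.4 after 60 min. Unlike set-2 it was still at 1.88 times HSAF-0 at 60 min. The rule failed for set-2 without libraries B, C or J and for nst-7 without J.

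Among regulators, aod-2, which encodes a transcription factor of the alternative oxidase gene, had 132, 124 and 85.3 normalized counts in HSAF-30, against 27.0, 13.02 and 16.0 in HSAF-0, and its other 6 libraries stayed between 11.9 and 28.7. The transcription factor gene kal-1 had 539.6, 1105 and 639.9 in HSAF-30, against 135, 143 and 193 in HSAF-0. In HSAF-5 it had 241, 376 and 279, all above HSAF-0, and in HSAF-60 102, 116 and 82.6, all below. NCU02724, annotated as a helix-loop-helix transcription factor, had 312, 316 and 448 in HSAF-30, against 38.1, 46.6 and 66.0 in HSAF-0, and kept 1.87 times the HSAF-0 level at 60 min.

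The phytochrome gene phy-1, for a red light photoreceptor, had 6.34, 3.43 and 14.9 normalized counts in HSAF-0, 31.8, 17.3 and 10.1 after 5 min, 80.7, 79.3 and 160.0 after 30 min, and 19.3, 12.3 and 15.8 after 60 min. Its ratio of 8.45 at 30 min was second to that of set-2 among the genes with a symbol. The light-regulated photoreceptor gene vvd ran otherwise, with means of 106, 389.8, 63.6 and 56.8 over the 4 times. Of 24 tested genes of light and clock, 7 were called higher and 1 lower in HSAF-30 against HSAF-0 (19.0% and 15.3% of all genes). The median log2 fold change of the 24 was 0.39.

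In metabolism, cys-9, a thioredoxin reductase gene, had 381, 392 and 534 normalized counts in HSAF-0, 672, 874 and 555 after 5 min, 3476, 3276 and 1573 after 30 min, and 271, 251 and 338 after 60 min. As with kal-1 and gpr-6, every HSAF-5 library but 1 of gpr-6 lay above HSAF-0 and every HSAF-60 library below it. The glycoside hydrolase gene gh13-1 had 1202, 1104 and 988 in HSAF-0, 1241, 2068 and 1033 after 5 min, 4293, 6111 and 4138 after 30 min, and 1526, 1686 and 1590.1 after 60 min. Its relative of another family, gh2-1, was near the detection limit outside HSAF-30, with 0 in D and F and at most 9.52 elsewhere, and had 96.3, 22.0 and 149 in HSAF-30. Of 61 tested glycoside hydrolase genes, 6 were called higher and 11 lower in HSAF-30 against HSAF-0 (19.0% and 15.3% of all genes). The median log2 fold change of the 61 was -0.58.

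The gene tng had 1595, 668 and 1136 normalized counts in HSAF-30, against 155, 180.2 and 165 in HSAF-0, with ratios of 1.49, 6.62 and 1.44. The lists by symbol can hold only the 22 members that have one. Chitin synthase is the enzyme that makes the chitin of the wall. Of 5 genes with its symbol, 4 were called higher in HSAF-30 against HSAF-0, where 19.0% of all genes were. The 5 had a median log2 fold change of 2.40, and none of them met the rule. The lists of heat shock proteins, antioxidant enzymes, proteasome subunits, the vacuolar ATPase and histones held no member either.

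**Figure D4:**
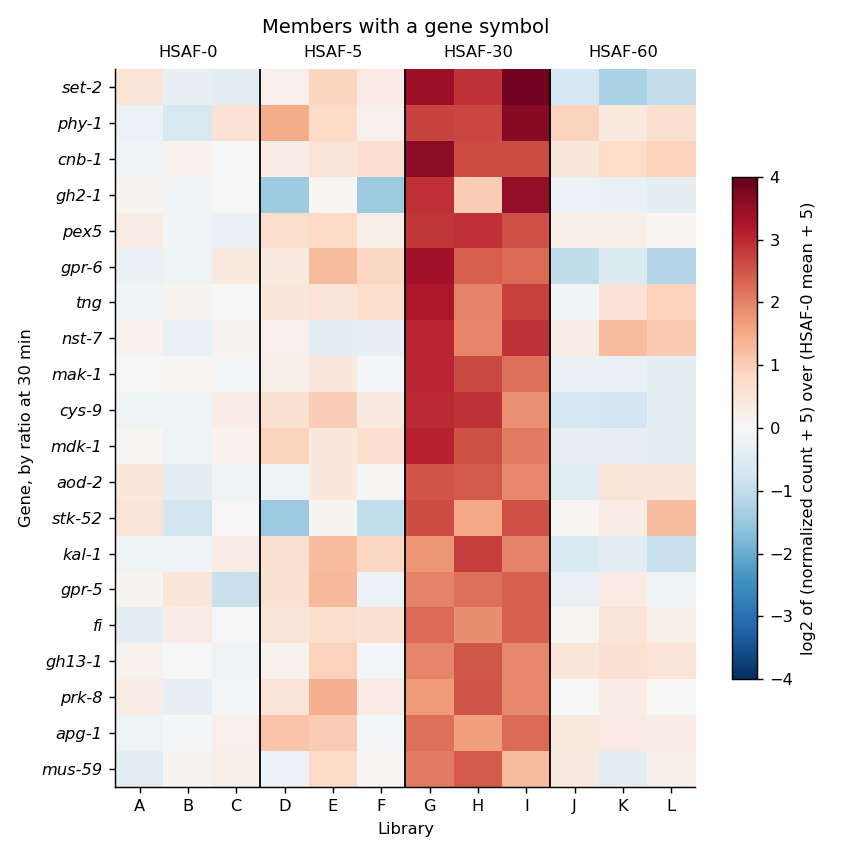
Level of 20 of the 22 genes with a symbol in each library, as the log2 of the normalized count plus 5 over the HSAF-0 mean plus 5, ordered from the highest ratio at 30 min (set-2, 10.9) to the lowest (mus-59, 4.02). Red is above and blue below the HSAF-0 mean; the block of HSAF-30 is red in every gene shown, while HSAF-60 is blue for set-2, gpr-6, cys-9 and kal-1.

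The sharpest peaks belonged to genes known only by their locus tags. NCU00010 had 76.1, 57.5 and 53.4 normalized counts in HSAF-0, 77.5, 203 and 105 after 5 min, 2521, 1991 and 1706 after 30 min, and 82.5, 139 and 91.7 after 60 min. With a ratio of 30.9 at 30 min it stood first, and its lowest HSAF-30 library was 8.40 times the highest other one. NCU16329 had 3884, 3116 and 1599.8 in HSAF-30, against 132, 188 and 193 in HSAF-0, a ratio of 16.4. NCU00045 had 219, 257 and 299 in HSAF-30, against 12.7, 8.22 and 14.3 in HSAF-0, and separated from the other libraries by 9.15-fold.

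Some of the steepest genes were all but silent outside 30 min. NCU04537 had no count in the 3 HSAF-0 libraries, 3.98, 5.31 and 5.53 normalized counts after 5 min, 68.9, 210.0 and 53.3 after 30 min, and 2.46, 2.05 and 2.86 after 60 min. Against a floor of 3 counts over the 3 HSAF-0 libraries, its 384 raw counts in HSAF-30 gave 177-fold more per unit of depth, and with a 95% interval that covers counting error only they were at least 143-fold higher. Library H held 286 of these 384 counts. NCU06864 had 127 raw counts in HSAF-30 and 3 in HSAF-0, a ratio of 58.5 with a 95% interval of 19.6 to 288 that covers counting error only. Both genes were chosen by their rise at 30 min, so the intervals are no test of that rise. They pool the libraries of a group and leave out the spread between them. The ratios used by the rule, 23.1 and 11.6, are lower because 5 was added to each mean.

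Library G was the highest in the next genes. NCU03430 had 731, 281 and 213 normalized counts in HSAF-30, against 12.7, 15.1 and 18.7 in HSAF-0. NCU01095 had 452, 80.0 and 208 in HSAF-30, against 3.17, 10.3 and 11.6 in HSAF-0, and by 60 min it was at 0.0457 of its HSAF-30 mean, the steepest fall of the 132 genes. NCU16807 had 1910.1, 457 and 629 in HSAF-30, against 68.2, 56.2 and 69.9 in HSAF-0. NCU09310, annotated as a subunit of a type 1 protein phosphatase complex, was more even, with 786, 603 and 576 in HSAF-30, against 60.3, 48.0 and 50.6 in HSAF-0.

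At the upper end of the counts, NCU03297 had 4003, 4042 and 5550.0 normalized counts in HSAF-0, 5779, 7415 and 6477 after 5 min, 24316, 27686 and 17811 after 30 min, and 2141, 4559 and 4266 after 60 min. Its mean of 23271 at 30 min was the highest, with a ratio of only 5.13. NCU01981 followed with 19916, 11059 and 8783 in HSAF-30, against 1708, 1971 and 2124 in HSAF-0. NCU02566 had 5748, 6974 and 7674 in HSAF-30, against 919.9, 696 and 642 in HSAF-0, and was flat at 5 min with a ratio of 0.97.

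Of the other genes with high counts, NCU05404 had 3568, 9975 and 7466 normalized counts in HSAF-30, against 1583, 1212 and 1469 in HSAF-0. NCU03893 had 6169.8, 8649 and 4239 in HSAF-30, against 1291, 1299 and 1430.1 in HSAF-0. In both, HSAF-5 was already above HSAF-0, at 1.49 and 1.76 times. NCU04640 and NCU04600 had HSAF-30 means of 4933 and 4462 and ratios of 5.39 and 5.47, and in each the library G was the highest. The helicase gene NCU06318, annotated as DHX8, had 211, 247 and 336 in HSAF-30, against 44.4, 32.9 and 46.8 in HSAF-0, and was at 1.95 times HSAF-0 at 5 min and 1.81 times at 60 min, near the limit of 2 on both sides.

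The 3 libraries of HSAF-30 differed among themselves more than those of the other times. The coefficient of variation of the 132 genes had a median of 21.9% in HSAF-0, 26.4% after 5 min, 36.3% after 30 min and 23.0% after 60 min, and over the 5452 genes it was 17.4%, 25.0%, 39.2% and 22.9%. The highest HSAF-30 library was G in 69 genes, I in 41 and H in 22. The lowest was H in 67, I in 41 and G in 24. The ratio of the highest to the lowest had a median of 2.03, and it reached 3 or more in 21 genes.

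The order of these libraries differed between kinds of course. Among the 146 genes that also rose 4-fold at 30 min and stayed above 2 times HSAF-0 at 60 min, H was the highest in 1 gene and I in 82. Among the 186 genes that were already above 2 at 5 min and back within the limits at 60 min, H was the highest in 100 and I in 24. Among the 344 genes above 2 at both times, H was the highest in 26.2% and I in 20.1%. The 132 genes had H highest in 16.7% and I in 31.1%. Which properties of the cultures or libraries go with this order was not tested.

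In 2 genes library I alone held over 2 in 3 of the HSAF-30 sum. NCU04289 had 291, 208 and 3498 normalized counts in HSAF-30, against 306, 139.7 and 135 in HSAF-0, so G and H lay within the range of the untreated libraries. NCU08132 had 1185, 3148 and 10447 in HSAF-30, against 1469, 839 and 426 in HSAF-0, and G lay below library A. Both genes fell out of the rule without library I. NCU06876 had 2483, 273 and 1056 in HSAF-30, against 182, 326 and 316 in HSAF-0, with H inside the untreated range, and NCU00616 had 394, 61.7 and 299 in HSAF-30, against 33.3, 19.2 and 32.5 in HSAF-0.

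At the even end, NCU07059 had 121, 134 and 123 normalized counts in HSAF-30, against 23.8, 25.3 and 13.2 in HSAF-0. NCU03818 had 560.0, 546 and 639.9 in HSAF-30, against 108, 133 and 127 in HSAF-0. NCU08396, NCU01725 and NCU09425 also kept within 1.19-fold among G, H and I, with HSAF-30 means of 369, 177 and 157. These 5 genes had ratios of 4.22 to 5.45 at 30 min, so the most even genes were not the steepest.

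Membership was examined by leaving out each library in turn. The rule then found 122 to 159 genes, and 64 of the 132 genes were found whichever library was left out. For any of G, H and I left out it was 87. The most members were lost without A (26), C (23) and G (21) and the fewest without L (1) and K (3), while leaving out H or I brought in 38 and 44 other genes. Among the 22 genes with a symbol 9 never left the set, mak-1, cnb-1, mdk-1, fi, pex5, cys-9, aod-2 and tng among them. The genes gpr-6 and phy-1 left it without 4 and 2 of the libraries.

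**Figure D5:**
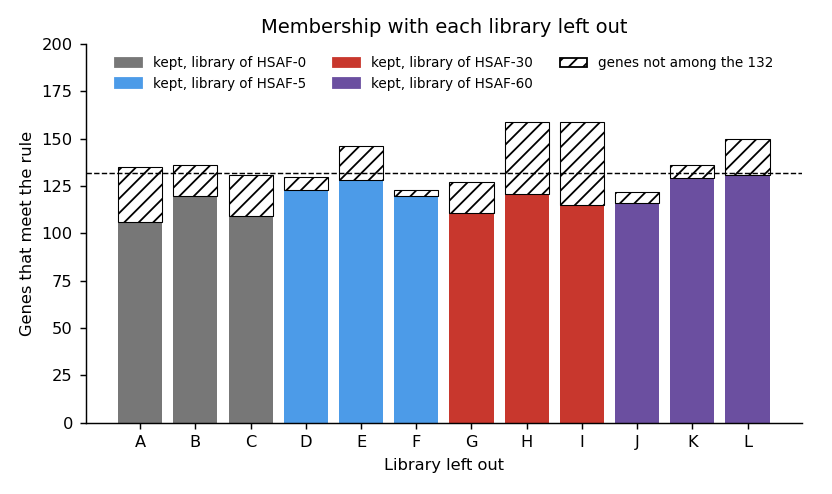
Number of genes that meet the rule when each library is left out. Solid bars are those of the 132 genes that are kept, coloured by the group of the library left out, hatched bars are genes not among the 132, and the dashed line marks 132; without A 26 of the genes are lost, without L 1.

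The limits of the rule cut through a continuous range. Just above 4 at 30 min were NCU03024 and mus-59 at 4.02 and NCU05582 at 4.06, and just below were het-c and NCU09784 at 3.99 and NCU09296 at 3.98. At 5 min NCU04537 and NCU00010 stood at 1.99 and 1.98, with NCU05783 outside at 2.01, and at 60 min NCU06616 stood at 1.93, with NCU00249 outside at 2.03. At the lower limits NCU09425 stood at 0.57 at 5 min, with mlh-1 outside at 0.46, and set-2 at 0.52 at 60 min, with NCU09498 outside at 0.48. The mean of mus-59, 57.0, was nearest above 50, and NCU06582 was outside at 49.6. The mirror course, with at most 0.25 of HSAF-0 at 30 min and ratios within 0.5 and 2 at 5 and 60 min, was met by 155 of 476 genes.

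Some of the 132 genes were neighbours on the chromosome, such as gh13-1 with NCU08132 and NCU03765 with NCU03766. NCU03765 had 2787, 1327 and 3050.3 normalized counts in HSAF-30, against 205, 169 and 139.7 in HSAF-0, while NCU03766 had 3089.6, 664 and 1279.8, against 236, 419 and 463. H was the lowest library in both, but the highest was I in NCU03765 and G in NCU03766. In the other pair, I was the highest library of NCU08132 and the lowest of gh13-1.

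Overlap with other annotated genes was no more frequent than elsewhere, at 26.5% of the 132 genes and 27.0% of the 5452. It concerned 35 genes, mak-1, pex5, gpr-5 and gh2-1 among them. Whether the counting used strand is not given in the sources used here, so reads of overlapping genes may not be told apart. The overlapping genes had a median ratio of 1.14 at 30 min, and for 22 of the 35 genes they stayed under 2. In 7 cases the overlapping gene was also at 4 or more at 30 min, among them those beside NCU01981 (6.59) and NCU02566 (14.4), but none of them was one of the 132. The gene that overlaps mak-1, NCU09843, averaged 4.92, 9.51, 12.1 and 4.60 over the 4 times.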

How the data were processed

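The deposited counts per gene and FPKM values of 12 libraries (NEBNext Ultra kit) were used, grouped by the sample labels. The authors trimmed the reads with Trimmomatic. The sources used here name no aligner, counting program or build of the genome. The deposited FPKM are scaled by the authors to totals that include 1680 newGene features. Gene names, lengths and neighbours were taken from RefSeq (NC12), in which all 9729 NCU genes were matched. The labels give an age of 48 h, the study's methods 24 h of growth.

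Size factors rested on the 5845 NCU genes with counts in all libraries. Counts were fitted with edgeR 4.0.16 in R 4.3.3 (TMM on NCU genes, filterByExpr with a minimum count of 10, 7582 genes, quasi-likelihood test, 1 mean per time, common dispersion 0.126). The call was an adjusted p (Benjamini and Hochberg) under 0.01 with a log2 fold change of 1 or more in size. DESeq2 1.42.0, limma 3.58.1 on log2(FPKM + 1) for genes with an FPKM of at least 1, a pseudocount of 0.1, other scalings, no filter, 2 groups alone and each library left out were alternatives. Chosen after seeing the data were the filter on means plus 5 and the members that pass filterByExpr. The fit was checked on simulated data. The rule and the tables ran under Python 3.11.15 (pandas 2.3.3, numpy 2.4.6, scipy 1.17.1), and matplotlib 3.10.9 drew the figures. No replicate pair shared its counts within sampling noise (lowest chi-square per degree of freedom 11.0). The p-values behind the calls measure only the spread between these libraries.

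The members, the rule and the gene lists were chosen with earlier results of these data known. The lists were 20 sets of genes by symbol, and 4 more (peroxisome biogenesis, protein kinases, G protein coupled receptors, chromatin enzymes) were drawn up after the members had been seen. Over all tested genes 19.0% were called higher and 15.3% lower in HSAF-30 against HSAF-0. Of the lists not described in the report, the counts called higher and lower in HSAF-30 against HSAF-0 were 2 and 1 of 4 glucanosyltransferases, 1 and 1 of 11 heat shock proteins, 0 and 4 of 11 antioxidant enzymes, 0 and 0 of 7 cytosolic ribosomal proteins, 4 and 0 of 30 proteasome genes, 7 and 7 of 52 genes of the respiratory chain, 1 and 1 of 14 of the vacuolar ATPase, 2 and 14 of 54 of amino acid synthesis, 5 and 7 of 20 of nitrogen and sulfur assimilation, 8 and 2 of 43 transcription factors, 0 and 0 of 9 histones, 5 and 1 of 22 of septation and polarity, 8 and 2 of 31 of RNA interference and DNA repair, and 2 and 0 of 2 of autophagy. Genes were named by a rule: members with a symbol, the 10 highest by ratio and by level at 30 min, those nearest to a limit, in a list, annotated in the part of the supplementary tables that was readable, next to another member, or with the 5 largest or 5 smallest spreads among the HSAF-30 libraries. Some genes that this rule takes, and 1 list, are not reported here. Promoter motifs were not analysed here, and no comparison columns of the authors were used.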

Additional observations from a re-analysis of the deposited data

Results flagged for a closer look

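A few newGene features, which the comparisons above do not use, also met the rule. Of 175 such features with a group mean of at least 50 normalized counts, 5 did, beside 132 of the 5452 NCU genes. In 4 of the 5 all 3 HSAF-30 libraries lay above the other 9, an order that the rule itself favours. The feature newGene_1586 had 105, 15.4 and 80.0 normalized counts in HSAF-30, against 0, 0 and 0 in HSAF-0, and newGene_1820 had 242, 133 and 53.3 in HSAF-30, against 12.7, 2.74 and 1.65 in HSAF-0. The features newGene_1439, newGene_2023 and newGene_1413 had ratios of 6.94, 5.80 and 4.13 at 30 min, and newGene_1413 was the one with overlap between the groups. What these features are is not given in the sources used here.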

How the results depend on the processing

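Of 160 values under alternatives, 128 kept within 1.5 times the reported count and 32 did not. A limit of 3 in place of 4 at 30 min gave 239 genes, with all 132 among them. Scaling by TMM, total NCU counts or upper quartile factors gave 130, 130 and 119 genes, of which 124, 95 and 100 were among the 132. Across these scalings the median over all tested genes in HSAF-30 against HSAF-0 lay between -0.44 and -0.18 on the log2 scale. With limma on log2(FPKM + 1), on log2(FPKM + 0.1) and on log2(FPKM + 1) without a filter, the genes called were 11, 4 and 1 in HSAF-30 against HSAF-0, 7, 5 and 0 in HSAF-30 against HSAF-5, 4, 2 and 2 in HSAF-60 against HSAF-30 (of 111, 111 and 132 members tested), and 0, 0 and 0 in both HSAF-5 against HSAF-0 and HSAF-60 against HSAF-5. Of all genes, these fits called 3.49%, 3.63% and 0.564% higher in HSAF-30 against HSAF-0 (19.0% in edgeR), 1.13%, 1.18% and 0.0221% higher in HSAF-30 against HSAF-5 (9.03%), and 0.468%, 0.210% and 0.111% lower in HSAF-60 against HSAF-30 (13.6%). In HSAF-5 against HSAF-0 a fit to the 2 groups alone called 2 genes, and leaving out 1 library gave 0 to 1. In HSAF-60 against HSAF-5, DESeq2 and library size alone each called 8 in either direction, and leaving out 1 library gave 0 to 8. The cause was not tested. No paired analysis was possible because no replicate number is shared between times, each library having a letter of its own. Depth limits weak genes most in library I, where 26 of the 132 genes had under 30 counts.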
